A study of Mus musculus with 6 samples.

Results

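The endoplasmic reticulum (ER) stress and folding genes are a list of 32 genes, chosen by symbol for what they are known to do. The choice was made with earlier results of these data known. All 32 had a row in the deposited table of 17528 genes, and all 32 were among the 14304 genes that were tested. By role they are 9 chaperones of the ER lumen and their cofactors, 2 lectin chaperones, 4 disulphide isomerases, 3 stress sensors, 3 stress transcription factors, 6 genes of export and degradation of misfolded proteins, 4 targets of the integrated stress response and 1 subunit of the translocation channel.

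RNA-seq was done on bone marrow cells sorted from mouse femurs as CD11b+F4/80+ macrophages, in mice that carried Raji cells, a human Burkitt lymphoma B cell line. All mice were BALB/c RAG2-/-γc-/-, a strain that lacks T cells, B cells and natural killer cells, so every group shares these alleles. The groups were mice without a graft (day 0), mice at day 4 and mice at day 18 after the Raji cells were given into a vein, with 2 libraries each. The labels give no age or sex, and whether replicate libraries stem from different animals or from pooled ones is not stated. P-values therefore rest only on the spread between these libraries. For each gene that spread was largely taken from genes of similar level (3 residual degrees of freedom, median prior 22.2).

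Proteins that enter the ER are folded there by chaperones such as BiP (Hspa5) and by disulphide isomerases, and those that fail are sent back to the cytosol and degraded. When unfolded protein accumulates, the sensors IRE1 (Ern1), PERK (Eif2ak3) and ATF6 start the unfolded protein response: IRE1 splices the mRNA of Xbp1, ATF6 is cut to release a transcription factor, and PERK phosphorylates eIF2 alpha, which slows translation while the mRNA of Atf4 is translated more. Amino acid shortage and other stresses reach ATF4 through other eIF2 alpha kinases, the integrated stress response, and macrophages are known to use both responses during inflammation. The values here are levels of mRNA per gene: they show neither the splicing of Xbp1 nor the cutting of ATF6, nor any protein or phosphorylation.

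The promoters of several of the 32 genes hold the sites that ATF6, XBP1 and ATF4 are known to read, and these are shown as a description of sequence. The members were listed for their known part in these responses, so the shares below are no test of the list. RefSeq promoter windows of 300 bases (250 before and 50 after the start of transcription, build GRCm38.p6) were found for 28 members, and 32851 windows of all genes were searched on both strands for exact matches. The ER stress response element (ERSE) was searched as CCAAT, 9 bases of any kind, then CCACG. It was found in 8 of the 28 windows and in 0.119% of all windows, 39 in number. These are its matches in the direction of the gene, with the fixed letters in capitals; CGTGG followed by ATTGG is the same element read from the other strand.

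Hspa5 (chr2:34772017-34772051, + strand): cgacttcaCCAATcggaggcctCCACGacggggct
Hsp90b1, far match (chr10:86705630-86705664, - strand): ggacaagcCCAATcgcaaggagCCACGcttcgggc
Hsp90b1, near match (chr10:86705525-86705559, - strand): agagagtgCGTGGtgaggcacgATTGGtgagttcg
Dnajc3 (chr14:118937819-118937853, + strand): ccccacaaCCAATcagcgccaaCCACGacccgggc
Creld2 (chr15:88819512-88819546, + strand): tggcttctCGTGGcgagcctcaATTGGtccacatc
Calr (chr8:84847067-84847101, - strand): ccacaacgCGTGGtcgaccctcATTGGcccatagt
Canx (chr11:50325792-50325826, - strand): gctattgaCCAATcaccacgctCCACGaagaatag
Pdia6 (chr12:17266483-17266517, + strand): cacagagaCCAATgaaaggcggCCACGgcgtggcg
Syvn1 (chr19:6046524-6046558, + strand): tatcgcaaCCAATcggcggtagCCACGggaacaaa

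The related element ERSE-II was searched as ATTGG, 1 base of any kind, then CCACG, and it was found in 2 member windows (Dnajb11 and Herpud1) and in 0.0365% of all windows. The core of the unfolded protein response element, TGACGTG, was found in the window of Hspa5 alone among members and in 2.01% of all windows. The C/EBP-ATF response element (CARE), to which ATF4 binds with a C/EBP partner, was searched as TGATG, 1 base of any kind, then AA. It was found in 3 member windows (Asns, Herpud1 and Trib3) and in 3.97% of all windows. A choice of these matches, in genes whose levels differed at day 18, reads as follows, again with fixed letters in capitals; that of Trib3 is on the other strand.

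Herpud1, ERSE-II (chr8:94386369-94386395, + strand): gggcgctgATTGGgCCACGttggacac
Hspa5, core of the unfolded protein response element (chr2:34771925-34771947, + strand): cgtagcaaTGACGTGagttgcgg
Asns, CARE (chr6:7693217-7693240, - strand): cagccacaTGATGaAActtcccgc
Trib3, CARE (chr2:152344031-152344054, - strand): gctcaggtTTaCATCAgccgggcg

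The ERSE matches lay between 212 and 26 bases before the start, and the CARE of Trib3 lay just after it. A match is a description of letters, and binding was not measured.

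**Figure D1:**
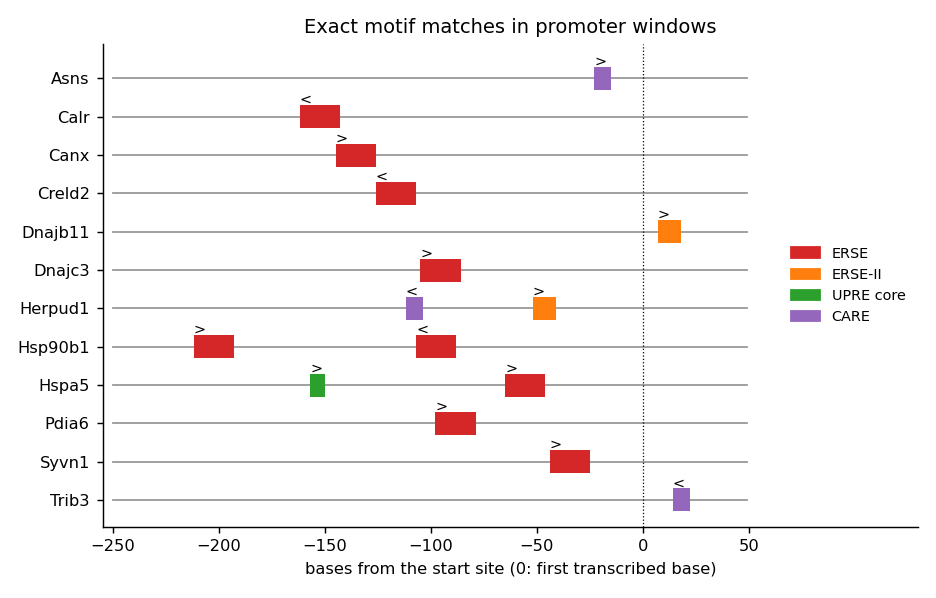
Position of each exact match in the 300-base promoter windows of the 12 members that hold one, in bases from the start of transcription (dotted line); the mark above a box gives the strand relative to the gene. ERSE matches, in red, were found in 8 members and all lay before the start.

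Values are reads per 1000000 (RPM) after scaling by trimmed mean of M values, from libraries of 20073016 to 23214522 reads assigned to listed genes. They were compared on the scale log2(RPM + 0.1) with limma over all 14304 tested genes, and a gene was called at a Benjamini-Hochberg adjusted p under 0.05. Fold changes are on that scale. The sort markers moved in different directions: at day 18 Itgam (CD11b) had 1934 and 1924 RPM, against 2299 and 2322 RPM at day 0, while Adgre1 (F4/80) had 60.9 and 62.3 RPM, against 35.3 and 33.9 RPM, and Csf1r had 400.5 and 422 RPM, against 156 and 163 RPM. All 3 differences were called. The 8 late neutrophil markers summed to 134205 and 134865 RPM at day 0, 115129 and 119558 RPM at day 4 and 98582 and 100247 RPM at day 18, far above the 8 macrophage markers at 2523 to 2768 RPM in all libraries. The samples are therefore described here by their sort and not as pure macrophages, and fewer cells of a type cannot be told apart from less RNA per cell. Of the 8 late neutrophil markers, 1 was higher and 6 lower at day 18 than at day 0. Of the 8 macrophage markers, 7 were higher and 1 was lower, Itgam. Itgam makes up most of the macrophage sum, with 1924 to 2322 RPM over the 6 libraries, so that sum hides the rise of the other markers at day 18. The classical monocyte list (4 genes) summed to 1663 and 1658 RPM at day 18, against 1181 and 1142 RPM at day 0. Of these genes 3 were higher at day 18 than at day 0 and 1 was lower. The lower gene was Ly6c2, the most abundant of the list, with 618 and 614 RPM, against 695 and 664 RPM at day 0. Non-classical monocyte markers (5 genes, all higher at day 4 than at day 0) summed to 591 and 591 RPM at day 0. They had 722 and 717 RPM at day 4 and 715 and 706 RPM at day 18. At day 18 against day 0, 4 of them were higher and 1 was lower (Spn). Plasmacytoid dendritic cell markers, of which 4 were measured, summed to 26.2 and 26.9 RPM at day 0 and 37.5 and 40.9 RPM at day 18. Of these, 2 were higher at day 18 than at day 0 (Bst2 and Tcf4), 1 was lower (Siglech) and 1 was not called (Ccr9). Siglech had 0.193 and 0.216 RPM at day 18, against 1.69 and 0.924 RPM at day 0. Stroma markers (4 genes) summed to 10.7 and 10.5 RPM at day 0 and 5.27 and 3.16 RPM at day 18. Primary granule markers of immature neutrophils (5 genes) summed to 2283 and 2314 RPM at day 0, 3696 and 3717 RPM at day 4 and 2676 and 2735 RPM at day 18. Plasma cell and B lineage markers, of which 6 were measured, summed to 49.8 and 54.0 RPM at day 0, 71.5 and 69.9 RPM at day 4 and 57.5 and 54.0 RPM at day 18, with Cd79a at 0.0483 to 0.462 RPM in the 6 libraries. Most of that sum is Ighm, which was lower at day 18 (30.7 and 27.9 RPM, against 36.3 and 39.0 RPM at day 0), while 2 markers of plasma cells were higher: Sdc1 had 6.33 and 5.06 RPM at day 18, against 0.355 and 0.832 RPM at day 0 (adjusted p = 4.72e-06), and Prdm1 had 9.47 and 10.3 RPM at day 18, against 3.33 and 3.60 RPM at day 0 (adjusted p = 4.02e-07). Eosinophil markers (5 genes, all higher at day 18 than at day 0) summed to 285 and 286 RPM at day 0, 251 and 272 RPM at day 4 and 505 and 512 RPM at day 18. Erythroid markers (4 genes) summed to 156 and 177 RPM at day 0, 91.4 and 90.4 RPM at day 4 and 244 and 249 RPM at day 18, and basophil and mast cell markers (4 genes) to 13.3 and 12.0 RPM, 33.4 and 34.4 RPM and 6.52 and 7.79 RPM on the same days. Of 4 osteoclast markers 2 were higher at day 18 than at day 0 and 2 were not called. Ocstamp had 2.66 and 2.94 RPM at day 18, against 0.0444 and 0.416 RPM at day 0 (adjusted p = 9.34e-05), with as few as 1 read in a library. Acp5 had 23.2 and 21.4 RPM, against 8.13 and 8.32 RPM. Ctsk had 3.53 and 3.50 RPM, against 4.31 and 5.50 RPM, and Mmp9 had 1205 and 1210 RPM, against 1213 and 1196 RPM. The part of these cell types in the results below was not tested.

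At day 18 the 32 genes moved in both directions, with more higher than lower. Against day 0, 15 were higher and 5 lower, and 12 were not called. The background was 35.2% of all tested genes called, 18.0% higher and 17.1% lower, and 46.0% among the 8917 genes whose log2 level averaged at least 3, which include 31 of the 32 members; the members' share was 62.5%. The median log2 fold change was 0.15 over the members and 0.02 over all tested genes. Of the 8 members with an ERSE 3 were higher and 2 lower, and of the 20 members with a promoter window and no ERSE 10 were higher and 3 lower. Most changes were small: of the 20 called members 3 differed by at least 1.5-fold, namely Ppp1r15a, Trib3 and Asns, and the median size was 0.27 on the log2 scale, against 0.36 over all called genes. With library totals in place of scaling factors the split was 18 higher and 4 lower, and 70.7% of all called genes were higher instead of 51.3%. With 1 spread for genes of all levels 9 members were called.

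At day 4 fewer of them differed, and most that did were lower. Against day 0, 2 were higher (Calr and Ern1), 6 were lower (Hspa5, Hsp90b1, Dnajc3, Pdia3, Eif2ak3 and Edem1) and 24 were not called. The background was 12.1% of all genes called, 5.44% higher and 6.62% lower, and 17.3% of genes whose log2 level averaged at least 3, so 8 of 32 is a somewhat larger share than either. No called member differed by 1.5-fold, and the median log2 fold change was -0.06 over the members and 0.00 over all genes. The direction at day 4 rests on the scaling: with library totals the split was 4 higher and 2 lower, with Dnajc3, Pdia3, Eif2ak3 and Edem1 no longer called and P4hb and Atf6 called higher, and 73.2% of all called genes were higher instead of 45.1%. Without day 0 A, or without day 0 B, 5 members were called. With 1 spread for genes of all levels, or on the deposited RPKM scale, 0 members were called by limma, with 5 and 8 at an unadjusted p under 0.05.

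Between day 18 and day 4, 12 members were higher at day 18 and 2 lower, and 18 were not called. The background was 25.9% of all genes called, 14.0% higher and 11.9% lower, and 34.2% of genes whose log2 level averaged at least 3. The members' median log2 fold change was 0.10, and that of all genes 0.01. With library totals the split was 16 higher and 2 lower. Without day 18 A, 9 members were called. All comparisons share libraries in pairs, so the day 4 and day 18 changes against day 0 are not independent. Over the time points 21 members were called in at least 1 comparison and 11 in none. The summed level of the 32 genes was 3843 and 3821 RPM at day 0, 3681 and 3640 RPM at day 4 and 4045 and 4066 RPM at day 18.

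**Figure D2:**
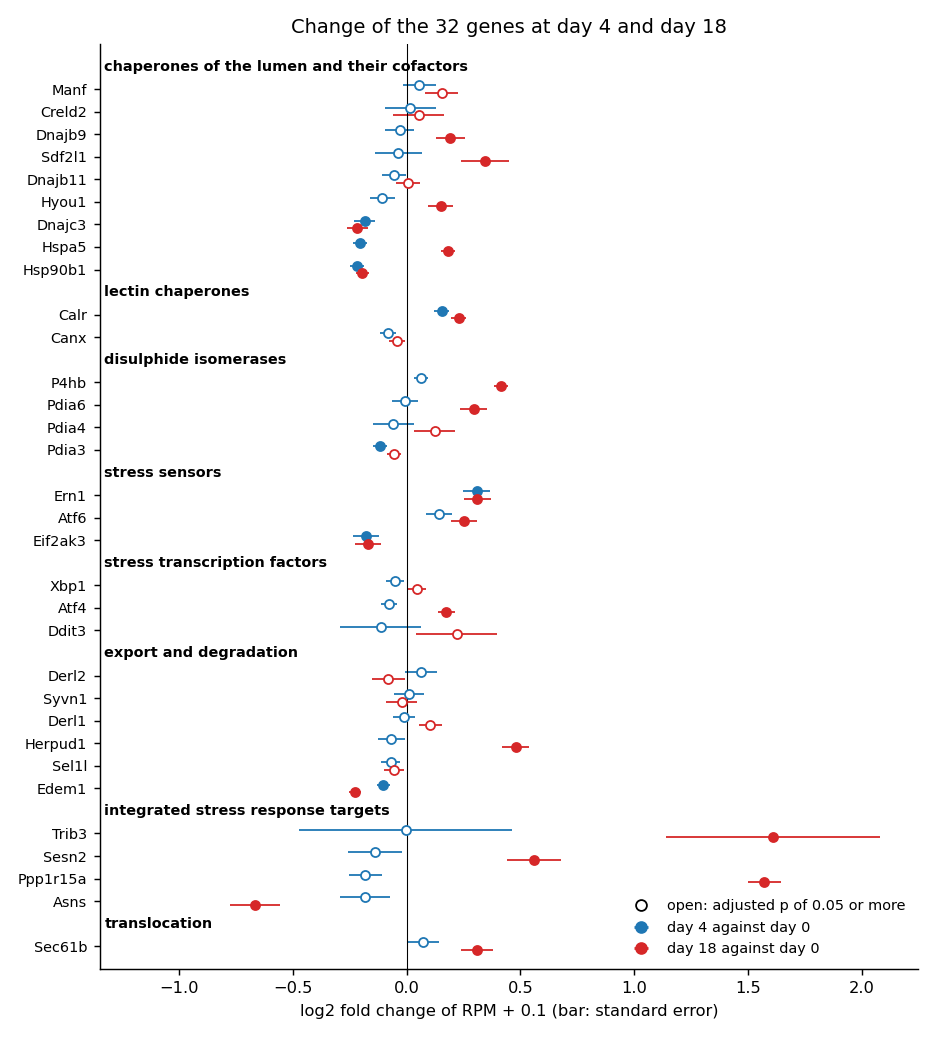
Log2 fold change of each of the 32 genes at day 4 (blue) and day 18 (red) against day 0, grouped by role, with bars for the standard error (2 libraries per group); filled points passed an adjusted p of 0.05 in limma. At day 18 Trib3 and Ppp1r15a stand at the right near 1.6 and Asns at the left at -0.67, while at day 4 all points lie between -0.22 and 0.31.

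The largest change was in the targets of the integrated stress response, and they did not move as one. Ppp1r15a, which encodes GADD34, the subunit that brings a phosphatase to eIF2 alpha, lies at chr7:45522916-45526269 (mm10). It had 31.8 and 29.2 RPM at day 0, 25.7 and 28.0 RPM at day 4 and 92.3 and 89.3 RPM at day 18. The day 18 libraries stood apart from the 4 others. Its level at day 18 was 2.97 times that at day 0 (log2 fold change 1.57, SE 0.07, adjusted p = 2.18e-15), and that at day 4 was 0.88 times the day 0 level, which was not called (adjusted p = 0.119). Trib3, a pseudokinase induced by ATF4 and CHOP, was the lowest member, at 0.444 and 0.555 RPM at day 0, 0.50 and 0.49 RPM at day 4 and 2.08 and 1.43 RPM at day 18. These are as few as 10 reads in a library, and its call at day 18 (log2 fold change 1.61, SE 0.47, adjusted p = 0.00832) was lost when day 18 A (1.36, adjusted p = 0.137) or day 0 A (1.48, adjusted p = 0.0511) was left out. Sesn2 (chr4:132492032-132510502) encodes sestrin 2, a stress-induced brake on mTORC1. It had 13.8 and 12.9 RPM at day 0, 12.7 and 11.6 RPM at day 4 and 18.4 and 21.1 RPM at day 18, and both day 18 libraries were above all others (log2 fold change against day 0 0.56, SE 0.12, adjusted p = 0.000555).

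Asns went the other way. It encodes asparagine synthetase, a classical target of ATF4, and its CARE is the one printed above. It had 26.4 and 25.2 RPM at day 0, 21.5 and 24.0 RPM at day 4 and 14.4 and 18.2 RPM at day 18. The groups did not overlap, and the day 18 libraries were the lowest. Its level at day 18 was 0.630 times that at day 0 (log2 fold change -0.67, SE 0.11, adjusted p = 2.08e-05) and fell by 0.48 on the log2 scale against day 4 (SE 0.11, adjusted p = 0.00132), a call that was lost without day 18 A (-0.32, adjusted p = 0.083). So of the 4 targets 3 were higher and 1 lower at day 18 than at day 0, and none of the 4 was called at day 4. The share called at day 18 was 100%, beside 35.2% of all tested genes and 46.0% of genes whose log2 level averaged at least 3.

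Immediate early genes were also higher at day 18. In a list of 12 such genes that was added after values were seen, 11 were higher and 1 lower (Ier2) at day 18 than at day 0. That is 100% called, beside 35.2% of all tested genes and 46.0% of genes whose log2 level averaged at least 3. Btg2 was among the higher ones at 0.09 on the log2 scale. The list summed to 3272 and 3243 RPM at day 0, 3300 and 3275 RPM at day 4 and 4529 and 4606 RPM at day 18. Fosb, for example, had 405 and 406 RPM at day 18, against 189 and 186 RPM at day 0. Their part in the level of Ppp1r15a was not tested.

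**Figure D3:**
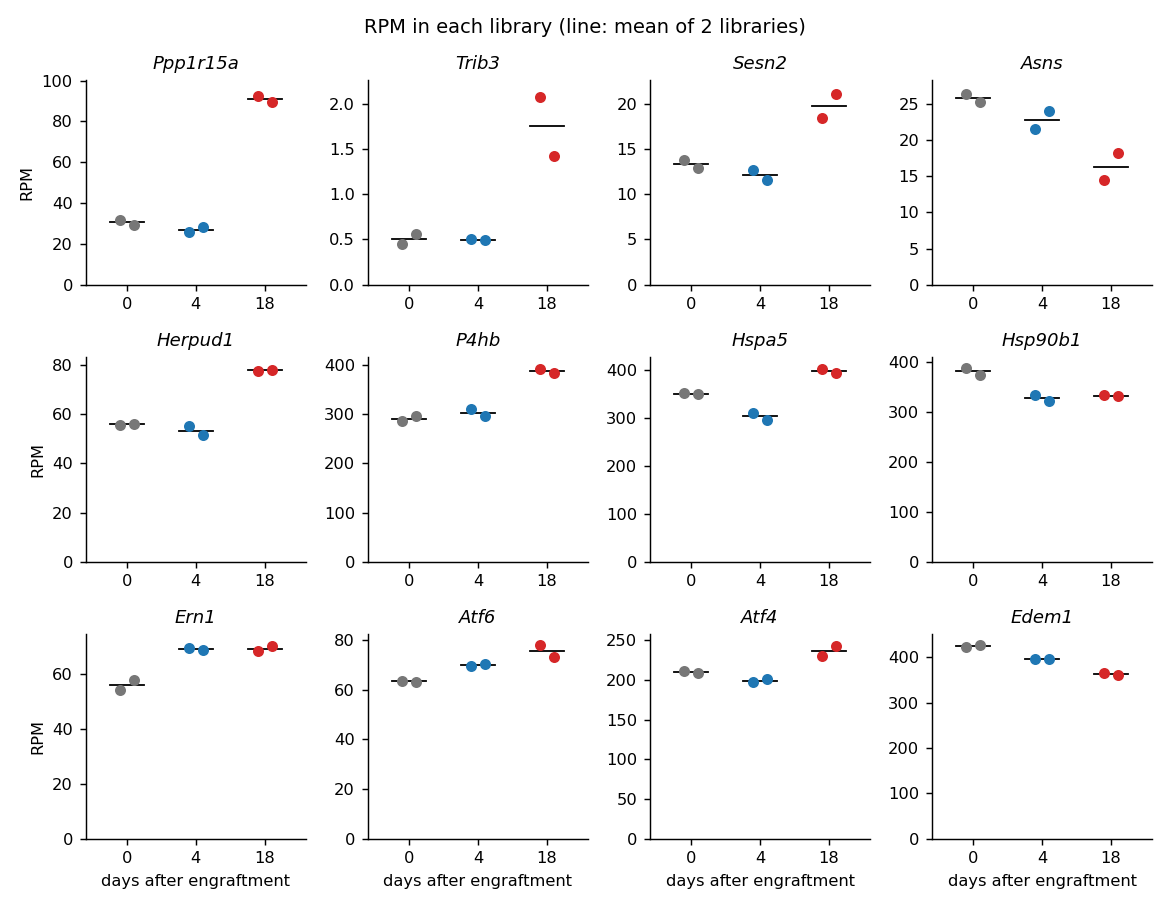
RPM of 12 members in each of the 6 libraries by days after engraftment, each panel with its own axis from 0; points are libraries and lines the mean of 2. Ppp1r15a, Trib3, Sesn2, Herpud1, P4hb, Hspa5, Atf6 and Atf4 have both day 18 libraries above the other 4. Asns and Edem1 have both below, and Ern1 is already high at day 4.

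Among the stress sensors, Ern1 and Atf6 were higher and Eif2ak3 was lower at day 18 than at day 0, so all 3 were called. The background was 35.2% of all tested genes called and 46.0% of genes whose log2 level averaged at least 3. Ern1 (chr11:106394650-106487853) had 54.2 and 57.9 RPM at day 0, 69.9 and 68.8 RPM at day 4 and 68.4 and 70.4 RPM at day 18. Its 4 libraries after engraftment lay together above both day 0 libraries, with 1.24 times the day 0 level at day 4 (log2 fold change 0.31, SE 0.06, adjusted p = 0.00059) and also at day 18 (0.31, SE 0.06, adjusted p = 0.000124). The difference between day 18 and day 4 was 0.00 (SE 0.06, adjusted p = 0.984). It was the member with the largest change at day 4. Atf6 had 63.5 and 63.3 RPM at day 0, 69.5 and 70.4 RPM at day 4 and 77.8 and 73.2 RPM at day 18. The 3 groups did not overlap, in the order of time, and the difference was called at day 18 (0.25, SE 0.06, adjusted p = 0.000836) and not at day 4 (0.14, SE 0.06, adjusted p = 0.109).

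Eif2ak3, which encodes PERK, had 80.2 and 79.5 RPM at day 0, 69.8 and 71.2 RPM at day 4 and 67.0 and 75.1 RPM at day 18. All 4 libraries after engraftment were below day 0: the level fell by 0.18 on the log2 scale at day 4 (SE 0.06, adjusted p = 0.043) and fell by 0.17 at day 18 (SE 0.06, adjusted p = 0.0234). Neither call held with library totals (adjusted p = 0.173 and 0.273). That at day 4 was lost without any 1 of its 4 libraries (adjusted p = 0.0877 to 0.195), and that at day 18 was lost when day 0 A, day 0 B or day 18 A was left out (adjusted p = 0.089 to 0.381). Of its exon bases 8.05% also belong to an uncharacterised gene on the other strand, Gm43292, and the sources used here do not say whether reads were counted by strand.

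Of the 3 stress transcription factors Atf4 was called, at day 18, and Xbp1 and Ddit3 were called in no comparison. Atf4 had 211 and 209 RPM at day 0, 197 and 201 RPM at day 4 and 231 and 243 RPM at day 18. Both day 18 libraries were above all others, and the difference from day 0 was 0.17 (SE 0.04, adjusted p = 0.000309) and from day 4 0.25 (SE 0.04, adjusted p = 3.63e-06). Xbp1 had 155 and 154 RPM at day 0, 148 and 149 RPM at day 4 and 161 and 158 RPM at day 18, and no comparison was called (day 18 against day 0: 0.04, SE 0.04, adjusted p = 0.409); with library totals it was called higher at day 18 (0.13, adjusted p = 0.0119). Ddit3 encodes CHOP, the factor linked to cell death in prolonged ER stress. It had 9.37 and 7.63 RPM at day 0, 6.50 and 9.35 RPM at day 4 and 11.1 and 8.78 RPM at day 18. Its groups overlapped, and its difference at day 18 was 0.22 with an SE of 0.18 (adjusted p = 0.376); of the 32 genes only Trib3 had a larger SE.

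Of the 9 chaperones of the lumen and their cofactors, 4 were higher and 2 lower at day 18 than at day 0, and 0 were higher and 3 lower at day 4. At day 18 66.7% were called, beside 35.2% of all tested genes and 46.0% of genes whose log2 level averaged at least 3. At day 4 33.3% were called, beside 12.1% and 17.3%. Hspa5, the Hsp70 of the ER, had 352 and 349 RPM at day 0, 311 and 297 RPM at day 4 and 402 and 393 RPM at day 18. The 3 groups were apart, with day 4 lowest and day 18 highest: it was lower at day 4 (-0.21, SE 0.03, adjusted p = 2.19e-05) and higher at day 18 (0.18, SE 0.03, adjusted p = 2.32e-05) than at day 0, and the difference between day 18 and day 4 was 0.39 (SE 0.03, adjusted p = 9.82e-11). Hsp90b1, the Hsp90 of the ER, shares the ERSE with Hspa5 and did not share this course. It had 388 and 375 RPM at day 0, 333 and 322 RPM at day 4 and 334 and 331 RPM at day 18. The 4 later libraries lay together below day 0: the level fell by 0.22 at day 4 (SE 0.03, adjusted p = 7.61e-06) and fell by 0.20 at day 18 (SE 0.03, adjusted p = 6.96e-06). Of its exon bases 10.3% also belong to a pseudogene on the other strand, 1810014B01Rik.

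Dnajc3, a J-protein that works with Hspa5, followed the course of Hsp90b1. It had 128 and 136 RPM at day 0, 119 and 113 RPM at day 4 and 114 and 113 RPM at day 18, and all 4 later libraries were below day 0 (day 4: -0.19, SE 0.05, adjusted p = 0.00664; day 18: -0.22, SE 0.05, adjusted p = 0.000397). The day 4 call was lost without day 0 B (-0.14, adjusted p = 0.157) or without day 4 B (-0.15, adjusted p = 0.0798). Hyou1, a nucleotide exchange factor for Hspa5, had 77.8 and 73.1 RPM at day 0, 69.1 and 70.8 RPM at day 4 and 82.5 and 84.7 RPM at day 18. Its day 18 libraries were the highest (0.15 against day 0, SE 0.05, adjusted p = 0.0352; 0.26 against day 4, SE 0.05, adjusted p = 0.000662).

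Smaller cofactors of Hspa5 showed the same order at day 18. Sdf2l1 had 16.8 and 19.6 RPM at day 0, 17.5 and 18.0 RPM at day 4 and 23.0 and 23.1 RPM at day 18 (0.34 against day 0, SE 0.11, adjusted p = 0.0118). Dnajb9, a J-protein, had 54.1 and 52.4 RPM at day 0, 49.8 and 54.4 RPM at day 4 and 61.1 and 60.5 RPM at day 18 (0.19 against day 0, SE 0.06, adjusted p = 0.0211). Both genes overlapped between day 4 and day 0, and stood above both at day 18. The calls of these genes against day 0 at day 18 are the less secure ones: that of Dnajb9 was lost without any 1 library (adjusted p = 0.0534 to 0.134), that of Sdf2l1 by leaving out day 0 A (0.23, adjusted p = 0.179), day 18 A (adjusted p = 0.0707) or day 18 B (adjusted p = 0.073), and that of Hyou1 by leaving out day 0 B (0.10, adjusted p = 0.289), day 18 A (adjusted p = 0.0861) or day 18 B (adjusted p = 0.195). Manf, Creld2 and Dnajb11 were called in no comparison. Their log2 fold changes at day 18 against day 0 were 0.15, 0.05 and 0.01, and that of Manf was called without day 0 B (0.27, adjusted p = 0.0151) and with library totals (0.24, adjusted p = 0.0106).

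The lectin chaperones, which hold glycoproteins while they fold, differed from each other. Calr (calreticulin) had 240 and 236 RPM at day 0, 262 and 266 RPM at day 4 and 274 and 283 RPM at day 18. The 3 groups rose in the order of time without overlap, by 0.15 at day 4 (SE 0.03, adjusted p = 0.00167) and by 0.23 at day 18 (SE 0.03, adjusted p = 2.39e-06) against day 0. Canx (calnexin), its membrane-bound relative, was called in no comparison, with 215 and 209 RPM at day 0, 204 and 197 RPM at day 4 and 206 and 206 RPM at day 18. Both promoters hold an ERSE.

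Of the 4 disulphide isomerases, 2 were higher and none was lower at day 18 than at day 0. This share of 50% stands beside 35.2% of all tested genes called and 46.0% of genes whose log2 level averaged at least 3. P4hb (chr11:120560298-120573254), the main protein disulphide isomerase, had 286 and 296 RPM at day 0, 311 and 296 RPM at day 4 and 392 and 383 RPM at day 18. The day 18 libraries were far above the 4 others, at 1.33 times the day 0 level (0.41, SE 0.03, adjusted p = 4.17e-11). Pdia6 had 66.1 and 66.5 RPM at day 0, 63.6 and 68.4 RPM at day 4 and 78.2 and 84.5 RPM at day 18 (0.29 against day 0, SE 0.06, adjusted p = 0.000216). Pdia3, which works with the lectin chaperones, had 325 and 316 RPM at day 0, 296 and 293 RPM at day 4 and 306 and 309 RPM at day 18. It was lower at day 4 (-0.12, SE 0.03, adjusted p = 0.00852), a call lost without day 0 A (-0.10, adjusted p = 0.147), and was not called at day 18 (-0.06, SE 0.03, adjusted p = 0.155). Pdia4 was called in no comparison (day 18 against day 0: 0.12, SE 0.09, adjusted p = 0.32).

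In the export and degradation group 2 genes led in opposite directions. Herpud1, an ER membrane protein of the degradation complex, had 55.7 and 56.1 RPM at day 0, 55.2 and 51.5 RPM at day 4 and 77.8 and 78.1 RPM at day 18. Both day 18 libraries were above the rest, at 1.39 times the day 0 level (0.48, SE 0.06, adjusted p = 3.03e-07). Edem1, a lectin that marks misfolded glycoproteins for degradation, had 423 and 426 RPM at day 0, 396 and 395 RPM at day 4 and 364 and 361 RPM at day 18. Its groups stepped down in the order of time without overlap: the level fell by 0.10 at day 4 (SE 0.03, adjusted p = 0.0117) and fell by 0.23 at day 18 (SE 0.03, adjusted p = 1.31e-07) against day 0, and the day 4 call was lost without day 0 A or day 0 B (adjusted p = 0.0727 and 0.127). Sel1l and Syvn1, which form the core of the ubiquitin ligase, and Derl1 and Derl2, channel proteins of the same complex, were called in no comparison, with log2 fold changes between -0.08 and 0.10 at day 18 against day 0. With library totals Derl1 was called higher at day 18 against day 0 (0.19, adjusted p = 0.00444) and against day 4 (0.15, adjusted p = 0.0325). Sec61b, a subunit of the channel through which proteins enter the ER, had 47.1 and 46.6 RPM at day 0, 45.8 and 52.8 RPM at day 4 and 57.2 and 58.8 RPM at day 18 (0.31 against day 0, SE 0.07, adjusted p = 0.000947).

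Levels of different genes were compared per kilobase of exon. Exon length joined all annotated exons of a gene and can exceed that of the transcripts expressed, so close ranks rest on the annotation. At day 0 the highest were Pdia3 at 102, P4hb at 101.7 and Hsp90b1 at 94.6 RPM per kilobase, followed by Atf4 at 89.0, Hspa5 at 82.9 and Calr at 82.5. The lowest were Ddit3 at 4.96, Sesn2 at 3.84 and Trib3 at 0.235. The sensors Atf6 and Ern1 were low and close to each other, at 6.87 and 6.86 RPM per kilobase. At day 18 P4hb was the highest at 135, and Ppp1r15a had 30.9 RPM per kilobase, against 10.4 at day 0.

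**Figure D4:**
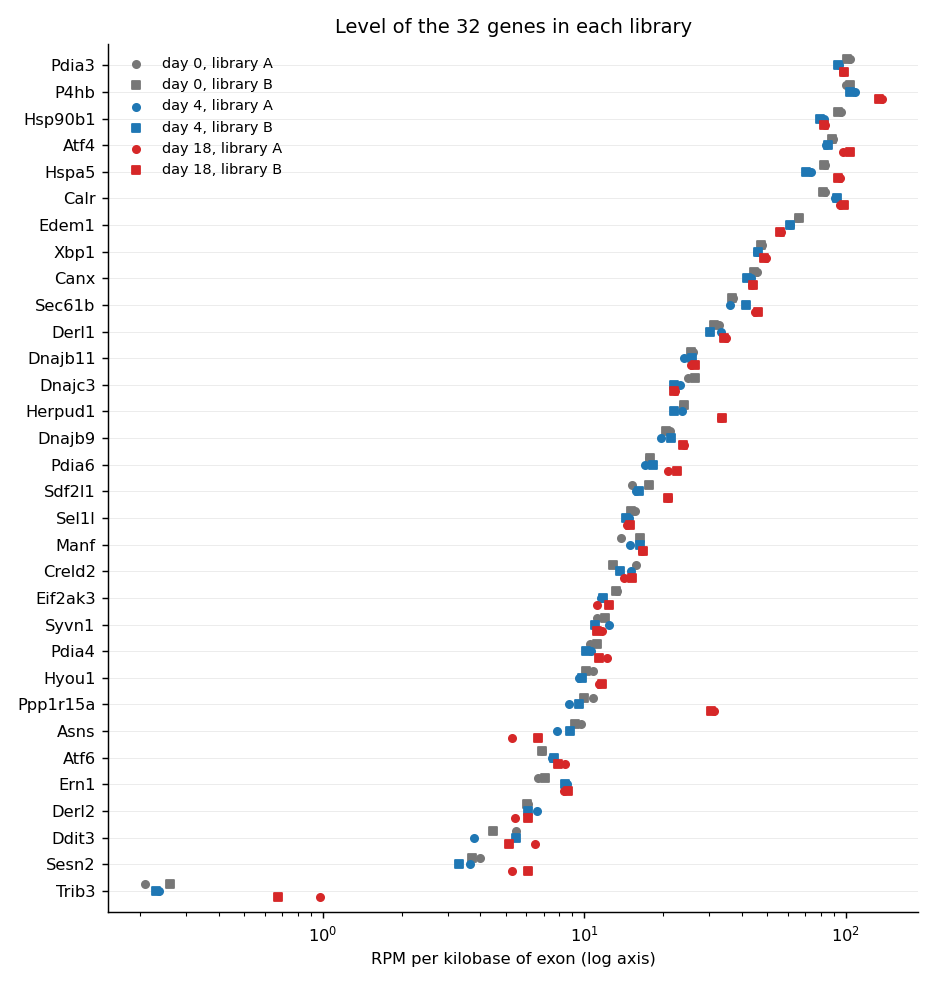
RPM per kilobase of exon (log axis) of the 32 genes in each library, ordered by the day 0 mean; grey, blue and red are day 0, day 4 and day 18, and circles and squares are the libraries A and B of a group. For most genes the 6 libraries lie close together next to the range between genes, and Ppp1r15a and Trib3 are the ones whose day 18 libraries stand off.

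Other genes of the pathway, from lists of 199 genes of which 179 were tested, were described in the same way: 43 were higher and 20 lower at day 18 than at day 0, 7 higher and 16 lower at day 4 than at day 0, and 29 higher and 9 lower at day 18 than at day 4. The shares called were 35.2%, 12.8% and 21.2% in that order, beside 35.2%, 12.1% and 25.9% of all tested genes and 46.0%, 17.3% and 34.2% of genes whose log2 level averaged at least 3, so these other genes were at or near the background or below it. With library totals the splits were 68 higher and 6 lower, 14 higher and 5 lower, and 42 higher and 7 lower, which turns the direction at day 4. The list of amino acid and other integrated stress response genes had the most calls in 1 direction, with 12 of 25 higher and 1 lower at day 18 against day 0 (52% called). Nupr1, a stress-induced chromatin protein, had 11.4 and 14.1 RPM at day 18, against 3.78 and 3.28 RPM at day 0 (1.82, SE 0.19, adjusted p = 1.93e-08). Slc7a11, the cystine transporter, had 9.13 and 9.75 RPM at day 0, 6.67 and 6.30 RPM at day 4 and 16.6 and 17.3 RPM at day 18, and was higher at day 18 (0.84, SE 0.14) and lower at day 4 (-0.53, SE 0.14). Cebpb, a partner of ATF4, had 268 and 275 RPM at day 18, against 152 and 148 RPM at day 0 (0.86, SE 0.04). Atf3 was higher too (0.74, SE 0.07), and is also an immediate early gene. The 1 lower gene of this list at day 18 was Jdp2 (-0.24, SE 0.05), and Mthfd2 was not called (-0.14, SE 0.06).

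Among 29 other folding enzymes and chaperones, 11 were higher and 3 lower at day 18 than at day 0, a share of 48.3% beside the 35.2% and 46.0% above. Txndc5, a disulphide isomerase, had 32.7 and 30.8 RPM at day 18, against 11.6 and 12.2 RPM at day 0 (1.41, SE 0.12, adjusted p = 1.53e-10), and Erp29 had 100.9 and 97.2 RPM, against 68.3 and 61.7 RPM (0.61, SE 0.06, adjusted p = 2.51e-09). Ero1l, the oxidase that recharges the isomerases, was lower at day 18, with 260 and 259 RPM against 381 and 377 RPM at day 0 (-0.55, SE 0.03, adjusted p = 5.42e-14), and also at day 4 (-0.22, SE 0.03). Of 24 genes of translocation and signal cleavage, 4 were higher and 3 lower at day 18 than at day 0 (29.2% called), among them Ssr4 (0.44, SE 0.07) and Tram1 (-0.18, SE 0.04). Of 27 other degradation genes 4 were higher and 3 lower (25.9% called), of 12 oligosaccharyltransferase genes 2 and 2 (33.3%), of 20 genes of retrieval and export 2 and 2 (20%), of 23 other sensors and regulators 4 and 4 (34.8%), and of 19 cytosolic transfer RNA synthetases, many of them targets of ATF4, 4 and 2 (31.6%). All 5 of these shares, and that of translocation, are below both backgrounds. The cell type marker sums given above moved over the same days, and their part in these counts was not tested.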

How the data were processed

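The deposited table gives, per the labels and the file's columns, 1 value per gene and library for 2 libraries per group. Its name says raw counts, but the deposited values are RPKM: each library sums to 1000000 once values are multiplied by gene span, introns included, in kilobases. The submitters' processing notes name STAR 2.5.3a and the build mm10. The sources used here do not give the counter, the annotation, or how strand and human reads were handled. Steps between low values gave the reads per library. Within 0.05 reads plus 1e-05 of a gene's reads, whole numbers were found for 77.5% to 78.9% of genes per library, too few for a count test. Of the members, 10 held fractional reads in some library (Hspa5, Hsp90b1, Calr, Canx, Eif2ak3, Atf4, Edem1, Derl1, Derl2 and Sec61b), so reads of other loci may be shared with them. The columns carry the letters A and B, which the labels do not use, and were matched to groups only.

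RPM was scaled by trimmed mean of M values (trim 0.3 and 0.05; factors 0.968 to 1.03). Genes with 10 reads at the median depth in 2 libraries and 15 in all were tested with limma 3.58.1 in R 4.3.3 on log2(RPM + 0.1), in 1 model of all 6 libraries, with trend and robust moderation (residual degrees of freedom 3, median prior 22.2, median SE 0.115). The script was tested on simulated data. Exon lengths came from GENCODE M21, promoter windows from RefSeq. The alternatives were library totals, no filter, a pseudocount of 1, only 4 libraries, each library left out, a block on the letter, the RPKM scale and 1 spread for all levels. All 32 members are named by role, with values per library for those called in a comparison and for Ern1, Atf6, Eif2ak3, Xbp1, Atf4 and Ddit3. Other genes named are called genes of a list averaging a log2 level of 1 or more that rank among its 3 smallest p in a direction and comparison. Members and lists were chosen with earlier results of these data known. Versions were numpy 2.4.6, pandas 2.3.3 and matplotlib 3.10.9 under Python 3.11.15.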

Additional observations from a re-analysis of the deposited data

Results flagged for a closer look

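The change at day 18 and the change at day 4 were both measured against day 0, and their difference, which is the comparison of day 18 with day 4, passed an adjusted p of 0.05 in limma for 14 of the 32 genes. It was positive for Ppp1r15a (1.75 on the log2 scale, adjusted p = 2.73e-16), Trib3 (1.62, 0.0109), Sesn2 (0.70, 5.52e-05), Herpud1 (0.55, 4.68e-08), Hspa5 (0.39, 9.82e-11), Sdf2l1 (0.38, 0.00759), P4hb (0.35, 1.6e-09), Pdia6 (0.30, 0.000231), Hyou1 (0.26, 0.000662), Atf4 (0.25, 3.63e-06), Sec61b (0.24, 0.0118) and Dnajb9 (0.22, 0.0101). It was negative for Edem1 (-0.13, 0.000751) and Asns (-0.48, 0.00132). Hspa5 was the 1 gene called in opposite directions at the 2 days. Without day 18 A the calls of Trib3 (1.36), Asns (-0.32), Sec61b (0.26), Sdf2l1 (0.38) and Dnajb9 (0.22) were lost; those of Sdf2l1 (0.38), Dnajb9 (0.23) and Sec61b (0.22) were also lost without day 18 B, and those of Sec61b (0.13) and Dnajb9 (0.16) without day 4 A. Derl1 was called without day 4 A (0.18) and Ddit3 without day 4 B (0.59).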

How the results depend on the processing

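No member reversed a called direction under any alternative. Called in every setting were 8 of the 20 members at day 18 against day 0 (Calr, P4hb, Ern1, Herpud1, Edem1, Ppp1r15a, Asns and Sesn2), 5 of the 14 at day 18 against day 4 (Hspa5, P4hb, Herpud1, Ppp1r15a and Sesn2) and 0 of the 8 at day 4 (limma; at an unadjusted p under 0.05, 12 members passed in the analysis as reported). No filter, a pseudocount of 1, a fit of only the 4 libraries compared and the replicate block each left all 96 member results on the same side of the threshold. With 1 spread for all levels, members called were 0 at day 4, 9 at day 18 against day 0 and 6 at day 18 against day 4 (unadjusted 5, 18 and 14); other pathway genes were 0, 25 and 13 (unadjusted 26, 53 and 40), and all genes 0, 2618 and 1357 (unadjusted 2454, 5121 and 4070). On the deposited RPKM scale members called at day 4 were 0 (unadjusted 8), other pathway genes 0 at day 4 (unadjusted 37), 34 at day 18 against day 0 and 19 at day 18 against day 4, and all genes 91 at day 4 and 2096 at day 18 against day 4. The cause was not tested. Leaving out each library gave at day 4 from 5 to 7 members, from 7 to 19 other pathway genes and from 916 to 1565 genes; at day 18 against day 0 from 15 to 18 members, from 34 (without day 18 A) to 48 other pathway genes and from 3649 to 3945 genes; and at day 18 against day 4 from 9 (without day 18 A) to 15 members, from 22 to 36 other pathway genes and from 2556 to 3322 genes. No difference shared by the letters was seen: over genes, A minus B correlated at -0.02 (day 4 and day 0), 0.00 (day 18 and day 0) and -0.04 (day 18 and day 4). What the letters stand for is not stated, so these values cannot settle whether libraries are paired. With the replicate block 1669, 4939 and 3672 genes and 8, 20 and 14 members were called in the order above. With 2 libraries a group, depth limits Trib3 and Ddit3 most.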
